A study of Homo sapiens with 9 samples.

Results

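The lysosomal cathepsins CTSA, CTSB, CTSC, CTSD, CTSH, CTSK, CTSL, CTSS and CTSZ and the cathepsin inhibitor cystatin C (CST3) were followed in SW1353 cells, a human chondrosarcoma line used as a stand-in for chondrocytes. The 10 genes were chosen by symbol from the 19389 rows of the expression table, each had 1 row, and all 10 passed the filter on low values. Messenger RNA was sequenced in 3 groups of 3 libraries. Cells of all groups were first cultured for 24 h. One group was then left untreated. The IL-1β group received the inflammatory cytokine interleukin-1β at 20 ng/mL for 20 h. The PBSL + IL-1β group was first kept with PBSL for 2 h and then exposed to IL-1β in the same way; the series title ties PBSL to larvae of Protaetia brevitarsis seulensis. PBSL was not given without IL-1β, and the PBSL concentration of the sequenced cells is not given in the sources used here. All groups are the same cell line, and nothing states that the libraries of a group came from separate cultures, so each p-value measures the spread between these libraries, which may be technical.

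Cathepsins are made as inactive precursors, carried to the lysosome mostly on mannose phosphate tags, and activated there at acid pH. CTSB, CTSC, CTSH, CTSK, CTSL, CTSS and CTSZ are cysteine proteases of the papain family, CTSD is an aspartic protease and CTSA is a serine carboxypeptidase. Cystatin C is secreted and blocks cysteine cathepsins that have left the cell. In joint tissue, secreted cathepsins can cleave collagen and aggrecan, and cathepsin K is best known as the collagenase of osteoclasts.

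Upstream sequence is shown for CTSA, CTSD and CTSL because CTSA and CTSD carried the letters CACGTG, the core of the element through which the lysosomal regulators TFEB and TFE3 act, while CTSL, which rose with IL-1β, did not. The sequences are the 250 bases before the RefSeq start of each gene (GRCh38.p14), written 5′ to 3′ on the strand of the gene, with CACGTG and GGGCGG (a GC box, or CCGCCC on the other strand) in capitals. CTSA lies at chr20:45891085-45891334 (+), CTSD at chr11:1763928-1764177 (-) and CTSL at chr9:87725869-87726118 (+).
CTSA: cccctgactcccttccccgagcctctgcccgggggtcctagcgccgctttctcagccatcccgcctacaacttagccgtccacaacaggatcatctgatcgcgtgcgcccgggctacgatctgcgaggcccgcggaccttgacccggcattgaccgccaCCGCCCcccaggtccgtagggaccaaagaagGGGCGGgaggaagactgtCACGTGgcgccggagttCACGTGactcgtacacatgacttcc
CTSD: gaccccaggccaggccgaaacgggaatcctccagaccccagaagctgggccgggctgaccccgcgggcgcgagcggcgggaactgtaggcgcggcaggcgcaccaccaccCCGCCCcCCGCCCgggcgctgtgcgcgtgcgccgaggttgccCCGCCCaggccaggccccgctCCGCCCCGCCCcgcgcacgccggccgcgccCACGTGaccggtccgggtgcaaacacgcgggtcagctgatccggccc
CTSL: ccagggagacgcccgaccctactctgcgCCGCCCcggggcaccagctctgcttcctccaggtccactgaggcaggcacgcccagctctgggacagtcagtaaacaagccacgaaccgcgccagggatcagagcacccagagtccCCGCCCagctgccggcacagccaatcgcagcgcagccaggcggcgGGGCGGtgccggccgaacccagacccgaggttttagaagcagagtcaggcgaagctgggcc

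Upstream sequence was at hand for 7 of the 10 genes, and CTSB, CTSK and CTSS were the others. CACGTG, which reads the same on both strands, was present 2 times in CTSA, 1 time in CTSD and not in the windows of CTSC, CTSH, CTSL, CTSZ or CST3. It was present in 6.34% of 35116 upstream windows of the same length. GGGCGG, searched on both strands, was present in all 7 windows and in 42.64% of all windows. None of the 7 windows held TGANTCA, the AP-1 letters, which 6.57% of all windows held. These matches describe letters only.

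The deposited values summed to between 523758 and 553196 per library, and between 11562 and 11727 genes reached a value of 1. The lowest values scaled with transcript length across 2011 rarely detected genes (Spearman's rho -0.787, genes are not independent replicates). The values were therefore read as length-normalized and levels were compared between genes on that scale. The number of reads behind a value is unknown, although the worth of a single read, estimated from low values, lay between 0.883 and 1.064 times that of untreated 1. Of the 11 chondrocyte markers checked, 4 were tested, and 6 stayed below 1 in every library. With IL-1β, SOX9, COL11A1 and HAPLN1 were lower and ACAN higher by limma (adjusted p under 0.05). ACAN passed the filter only through libraries given IL-1β and HAPLN1 only through untreated ones. SOX9 stood at 12.02 ± 0.68 (SD, n = 3) in untreated cells and 8.804 ± 0.371 with IL-1β. COL2A1, the defining cartilage collagen, reached at most 0.027 in any library. The summed level of the 11 was 19.3 to 21.6 in untreated, 15.1 to 16.3 in IL-1β and 13.4 to 15.1 in PBSL + IL-1β libraries.

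CTSB and CTSD were the most abundant cathepsin transcripts, and CTSK was the least abundant in all 3 groups. In untreated cells the deposited values of CTSB (527 to 619) and CTSD (478 to 576) overlapped. CST3 (184 to 212) and CTSA (187 to 204) also overlapped, with CTSL below them (165 to 174) and CTSZ next (68.3 to 75.3). The low end held CTSH (6.92 to 7.41), then CTSC (2.01 to 3.63) and CTSS (2.58 to 2.83), which overlapped, and CTSK (0.836 to 0.904). With IL-1β no neighbours in the order overlapped. CTSL then passed CST3 and CTSA, and CTSS passed CTSH and CTSC. With PBSL + IL-1β the order of the means was the same except that CTSA (175.3) stood above CST3 (169.3). The libraries of these genes overlapped (168 to 185 and 139 to 187).

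**Figure D1:**
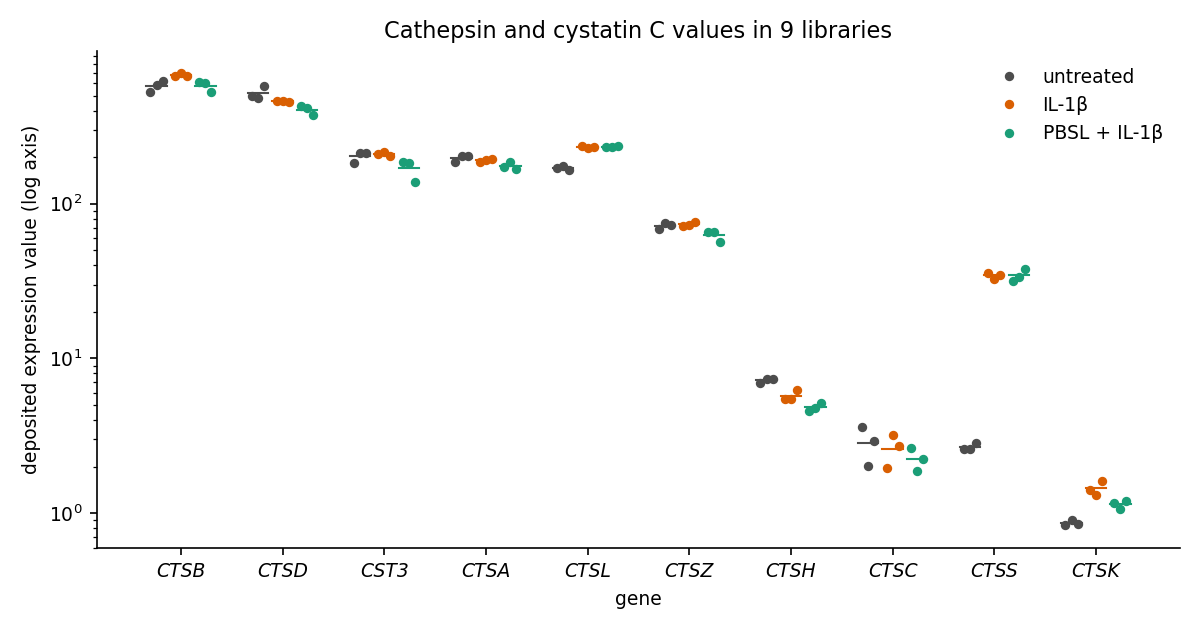
Deposited expression values (log axis) of the 9 cathepsin genes and CST3, ordered by their mean in untreated cells; each point is 1 library and each bar a group mean (n = 3). CTSS moves from 2.58 to 2.83 in untreated cells up to 31.8 to 37.6 in both IL-1β groups, while the other genes keep their order of magnitude.

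IL-1β libraries were first set against untreated ones. CTSS rose 12.8-fold, and CTSL, CTSK and CTSB rose by 1.37, 1.67 and 1.18 times. CTSH fell to 0.793 of its untreated mean, and CTSA, CTSC, CTSD, CTSZ and CST3 did not pass the test. By limma with Benjamini-Hochberg adjustment, 4 of the 10 genes were higher and 1 lower, where 16.2% of the 11924 genes tested were higher and 16.0% lower (32.1% in either direction). CTSK, among the 4, passed the filter only through libraries given IL-1β, so some of those had to be higher. At an unadjusted p under 0.05, 4 members were higher and 2 lower, against 20.8% and 21.0% of all genes tested. The IL-1β libraries lay wholly above the untreated ones for 4 members and wholly below for 2, CTSD and CTSH, where 25.7% and 27.1% of all genes tested did so (52.8% in all). The median log2 fold change of the 10 was 0.0395, against -0.00491 over all genes tested.

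CTSS, an endoprotease that stays active at neutral pH and trims the invariant chain of class II molecules, had values of 2.58, 2.62 and 2.83 in untreated libraries. It had 35.7, 32.7 and 34.7 with IL-1β. The groups were far apart and did not overlap. The log2 fold change was 3.27 (SE 0.0693, 95% interval 3.11 to 3.42, adjusted p = 1.25e-11). The CTSS share of the summed values of the 7 cysteine cathepsins went from between 0.31% and 0.331% to between 3.14% and 3.5%, so that CTSS remained a small part of that sum. Of the 14 macrophage markers checked, a cell type in which CTSS is abundant, 2 were tested and both, CSF1R and FCER1G, were higher with IL-1β; FCER1G was below 1 in every untreated library and passed the filter only through libraries given IL-1β. The summed level of the 14 was 5.29 to 5.81 in untreated, 7.03 to 7.14 in IL-1β and 6.25 to 6.61 in PBSL + IL-1β libraries. C1QC was at 0 in every library and CD14 reached at most 0.53. PTPRC, the pan-leukocyte antigen, reached at most 0.393, in an untreated library. Its mean was lower with IL-1β (0.3427 ± 0.0746 and 0.051 ± 0.0111), as was that of LYZ (0.9963 ± 0.0919 and 0.85 ± 0.132). PTPRC and LYZ were below the filter and not tested.

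CTSL, a broad lysosomal endoprotease, had values of 171, 174 and 165 in untreated libraries and 236, 230 and 231 with IL-1β. The groups did not overlap, and the rise of 0.45 on the log2 scale (SE 0.0433, adjusted p = 9.02e-06) was small but well beyond the spread. CTSK, the collagen-cleaving cathepsin, had 0.836, 0.904 and 0.857 in untreated and 1.42, 1.32 and 1.61 in IL-1β libraries (log2 fold change 0.39, SE 0.0805, adjusted p = 0.00281). All 3 IL-1β libraries were higher, but the level stayed near 1, and CTSK passed the filter only through libraries given IL-1β. Of the 8 osteoclast markers, 4 were tested, and ITGB3 and MMP9, which are expressed in many cell types, were higher with IL-1β. MMP9 went from 1.484 ± 0.207 to 9.468 ± 0.923, while ACP5, the tartrate-resistant acid phosphatase of osteoclasts, stood at 14.11 ± 1.98 and 11.28 ± 1.42 and was not called. The summed level of the 8 was 24.1 to 27.3 in untreated, 31.5 to 36.6 in IL-1β and 34.2 to 45.9 in PBSL + IL-1β libraries, with CALCR, the calcitonin receptor, at 0 throughout. The part of these markers in the CTSK result was not tested.

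CTSB, which acts as both an endoprotease and a peptidyl-dipeptidase, had 527, 583 and 619 in untreated and 668, 695 and 670 in IL-1β libraries. The IL-1β libraries were all higher, and the untreated ones were the more spread. The log2 fold change was 0.24 (SE 0.0719, adjusted p = 0.0248). This call was lost without untreated 1 or 2, without any 1 of the IL-1β libraries and with no filter on low values, at adjusted p between 0.0503 and 0.111. The direction was the same in each.

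Among the exopeptidases, CTSH, an aminopeptidase, had 6.92, 7.41 and 7.35 in untreated and 5.5, 5.44 and 6.24 in IL-1β libraries. It was lower in every IL-1β library (log2 fold change -0.29, SE 0.0708, adjusted p = 0.00771). CTSZ, a carboxypeptidase, was not called, at 72.22 ± 3.6 and 73.51 ± 2.32 (log2 fold change 0.03, 95% interval -0.12 to 0.17). CTSC, a dipeptidyl peptidase that activates serine proteases of immune cells, overlapped between the groups at 2.01 to 3.63 and 1.96 to 3.18 (95% interval of the log2 fold change -0.44 to 0.27). Its highest value was in untreated 1. In that library the epithelial keratin KRT19 stood at 7.95, against 0.732 and 0.427 in the other untreated libraries, and CSTA, a cytosolic cystatin, at 7.38, against 0.564 and 0.544. KRT19 and CSTA were singled out after their values were seen. The summed level of the 5 epithelial markers was 137 to 154 in untreated, 72.7 to 73.9 in IL-1β and 54.2 to 73.5 in PBSL + IL-1β libraries. KRT8 (39.53 ± 1.89 in untreated libraries) and KRT18 (100.2 ± 3.16) made up most of that sum. EPCAM and CDH1 were highest in untreated 1, at 0.489 and 0.341. The part of the epithelial markers in the CTSC values was not tested.

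CTSD, the main aspartic protease of lysosomes, had 496, 478 and 576 in untreated and 458, 464 and 451 in IL-1β libraries. The groups did not overlap, but the difference was not called (log2 fold change -0.17, SE 0.0729, adjusted p = 0.0976). CTSD shares its strand on chromosome 11 (GENCODE 29, 1752752 to 1764573) with the annotated gene AC068580.4, whose transcripts contain 60.56% of the 50-base stretches of the CTSD transcript. AC068580.4, named after its values were seen, had a row of its own, at 35.93 ± 2.65 in untreated and 23.56 ± 0.963 in IL-1β libraries (log2 fold change -0.59, adjusted p = 7.79e-05). How reads shared by CTSD and AC068580.4 were counted is not given in the sources used here. For the other members at most 2.17% of such stretches, in CTSB, were found in another gene. CTSA, which also holds β-galactosidase and neuraminidase in a protective complex, was not called at 197.7 ± 9.4 and 191.1 ± 4.48 (adjusted p = 0.54).

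CST3 was not called with IL-1β: it had 184, 212 and 211 in untreated and 210, 215 and 204 in IL-1β libraries, which overlapped (95% interval of the log2 fold change -0.16 to 0.27). Because the cysteine cathepsins summed to 832 ± 46.5 in untreated and 1028 ± 11 in IL-1β libraries, the ratio of the CST3 value to that sum was 0.236 to 0.251 and 0.199 to 0.207. The ratio was lower in every IL-1β library. It compares transcripts, not proteins.

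**Figure D2:**
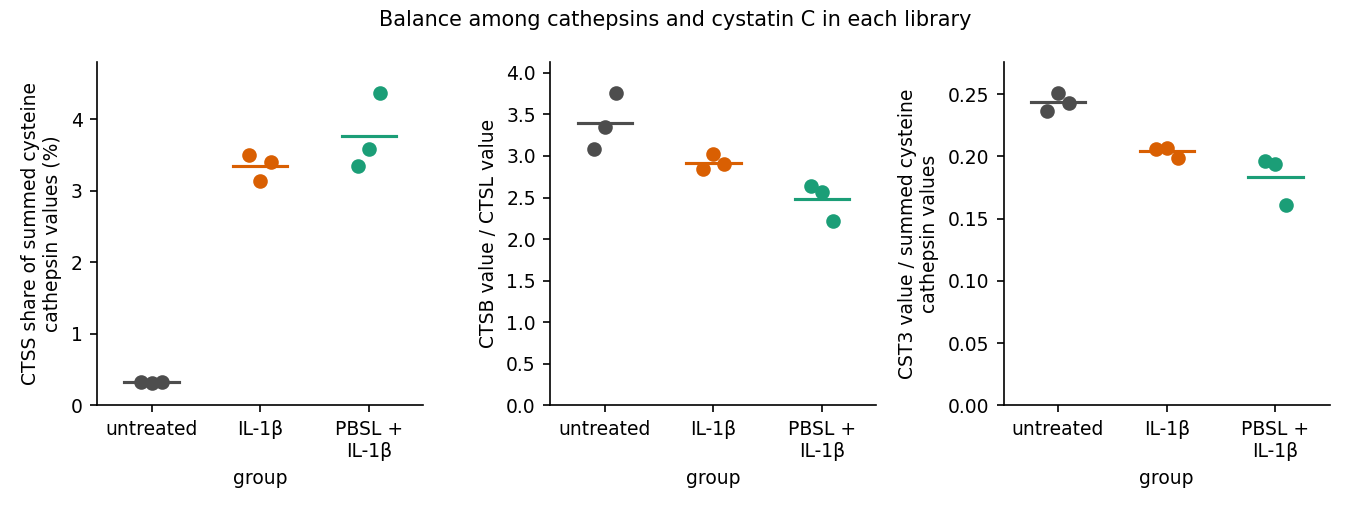
Values within each library: the CTSS share of the summed values of 7 cysteine cathepsins (left, %), the CTSB value divided by the CTSL value (middle) and the CST3 value divided by the cysteine cathepsin sum (right); points are libraries and bars group means (n = 3). The CTSS share is under 0.4% only in untreated libraries, and both ratios are lowest in PBSL + IL-1β libraries. PBSL 3 is the lowest library for both ratios.

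PBSL + IL-1β libraries were next set against those with IL-1β alone. The same IL-1β libraries enter the first comparison with the opposite sign. A rise with IL-1β and a fall with PBSL in the same gene are therefore not independent results. The mean of CST3 fell by 19.3%. The mean of CTSZ fell by 14.9% and that of CTSB fell by 14.6%. CTSS and CTSL, the members with the smallest p under IL-1β, were not called, and neither were the other 5. By limma, 3 of the 10 genes were lower and 0 higher, where 11.0% of all genes tested were lower and 11.5% higher (22.5% in either direction). At an unadjusted p under 0.05, 7 members were lower and 0 higher, against 17.7% and 18.8% of all genes tested. The median log2 fold change of the 10 was -0.185, against 0.00794 over all genes tested. The PBSL + IL-1β libraries lay wholly below the IL-1β libraries for 7 of the 10 and above them for 0, where 20.1% and 21.7% of all genes tested did so (41.8% in all).

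CST3 had 187, 183 and 139 in PBSL + IL-1β libraries against 204 to 215 with IL-1β alone. PBSL 3 was the lowest by far, and the groups did not overlap (log2 fold change -0.32, SE 0.0993, adjusted p = 0.0392). CTSZ had 65.4, 65.8 and 56.5 against 71.8 to 76.1 (log2 fold change -0.23, SE 0.0656, adjusted p = 0.0266). CTSB had 614, 600.2 and 523 against 668 to 695 (log2 fold change -0.23, SE 0.0719, adjusted p = 0.0396). In all 3 genes PBSL 3 was the lowest library, and the other PBSL + IL-1β libraries were nearer to IL-1β.

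All 3 calls were lost without any 1 of the IL-1β libraries, without PBSL 3 and with no filter on low values, at adjusted p between 0.0505 and 0.127. Without PBSL 3 the log2 fold changes were -0.182 for CST3, -0.162 for CTSZ and -0.159 for CTSB. The CTSB call was also lost without untreated 2, without PBSL 2, without a variance trend and with a replicate block (adjusted p = 0.0663), and the CST3 call without untreated 2, without a variance trend and with only the 2 groups compared. The direction was lower in each.

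**Figure D3:**
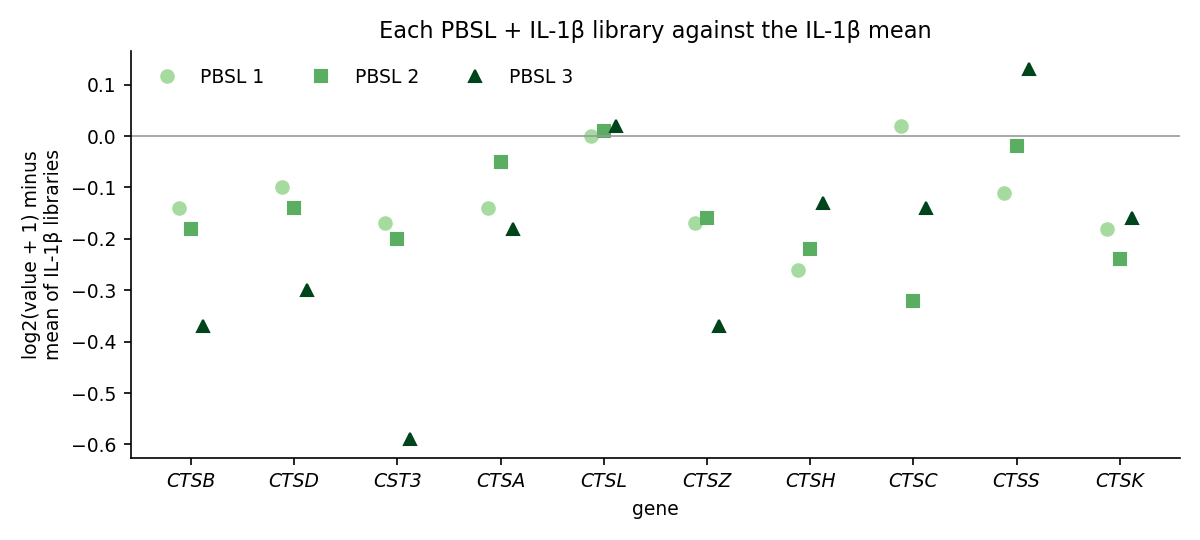
Difference of each PBSL + IL-1β library from the mean of the 3 IL-1β libraries on the log2(value + 1) scale, by gene; each symbol is 1 library. PBSL 3 is lowest for CST3 (-0.59), CTSB (-0.37), CTSZ (-0.37) and CTSD (-0.3), while all 3 libraries sit between 0 and 0.02 for CTSL.

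CTSS had 31.8, 33.8 and 37.6 with PBSL + IL-1β, and these values lay on both sides of those with IL-1β alone (95% interval of the log2 fold change -0.15 to 0.15). CTSL had 233, 233 and 236, also overlapping with IL-1β alone (log2 fold change 0.01, 95% interval -0.08 to 0.1). A change of the size that CTSB showed lies outside both intervals. The CTSB value was 2.84 to 3.02 times the CTSL value with IL-1β and 2.22 to 2.64 times with PBSL + IL-1β, without overlap. The ratio of CST3 to the summed cysteine cathepsins was 0.196, 0.194 and 0.161 with PBSL + IL-1β, below the IL-1β range of 0.199 to 0.207. PBSL 3 was the lowest, and PBSL 1 and PBSL 2 lay only just below that range.

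The remaining members were not called. CTSH had 4.6, 4.78 and 5.14, below every IL-1β library (log2 fold change -0.2, adjusted p = 0.0587). CTSK had 1.17, 1.07 and 1.19 (log2 fold change -0.19, adjusted p = 0.109) and CTSD had 426, 416 and 372 (log2 fold change -0.18, adjusted p = 0.0968), again without overlap. CTSD passed without PBSL 1 (adjusted p = 0.0499) and CTSK without a variance trend (adjusted p = 0.047). CTSA had 173, 185 and 168 (log2 fold change -0.12, adjusted p = 0.118). CTSC overlapped between the groups (95% interval of the log2 fold change -0.5 to 0.21).

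**Figure D4:**
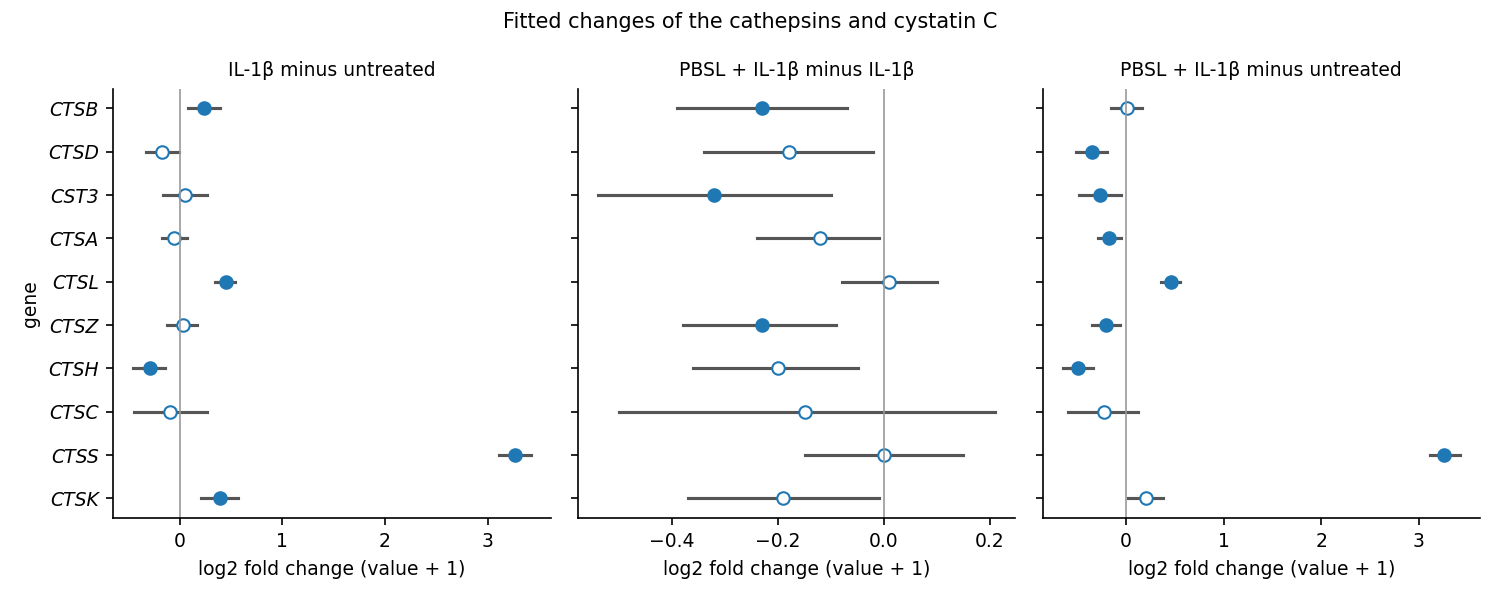
Fitted log2 fold changes of the 9 cathepsins and CST3 in the 3 comparisons with 95% intervals; filled points passed an adjusted p of 0.05 (limma) and open points did not. The horizontal scales differ: CTSS is at 3.27 and 3.26 against untreated cells, while every change in the middle panel lies between -0.32 and 0.01.

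The third comparison set PBSL + IL-1β against untreated cells, and it shares its libraries with the other comparisons. CTSS (log2 fold change 3.26, adjusted p = 1.5e-11) and CTSL (log2 fold change 0.46, adjusted p = 7.33e-06) were higher. CTSH (-0.49, adjusted p = 0.000192), CTSD (-0.35, adjusted p = 0.00249), CST3 (-0.27, adjusted p = 0.0494), CTSZ (-0.21, adjusted p = 0.0253) and CTSA (-0.17, adjusted p = 0.0236) were lower. That is 2 higher and 5 lower of 10, where 22.3% of all genes tested were higher and 19.3% lower (41.6% in either direction). The libraries lay wholly above the untreated ones for 3 members and wholly below for 4, where 26.0% and 22.1% of all genes tested did so (48.2% in all). CTSB was at 576 ± 46.2 in untreated and 579 ± 49.1 in PBSL + IL-1β libraries (95% interval -0.15 to 0.16), and CTSK was not called (0.2, adjusted p = 0.0656). CTSK passed with no filter on low values (adjusted p = 0.0311) and without a variance trend (adjusted p = 0.0222). The CST3 libraries overlapped with the untreated ones. The CST3 call was lost under 13 of 16 alternatives (adjusted p between 0.0508 and 0.144), among them the runs without untreated 2, untreated 3, each IL-1β library or PBSL 3. The calls of CTSA and CTSZ were each lost under 5, without untreated 2, untreated 3 or PBSL 3, with only the 2 groups compared and with array weights, at adjusted p between 0.0516 and 0.0922. The same 3 libraries decided the number of lower genes, which was 2 without any 1 of them.

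The counts of the lists that follow are to be read against the shares of all genes tested, which were 16.2% higher and 16.0% lower with IL-1β and 11.5% higher and 11.0% lower with PBSL. Among the other cathepsins and legumain, of 8 genes 7 were in the table and 5 were tested. Of these 3 rose and 0 fell with IL-1β by limma, also at an unadjusted p under 0.05, and 3 fell and 0 rose with PBSL, again the same unadjusted. With PBSL the number lower was 2 without any 1 of the IL-1β libraries, PBSL 2 or PBSL 3. CTSW, a cathepsin of cytotoxic lymphocytes, rose from 1.64 ± 0.194 to 5.821 ± 0.295 with IL-1β (adjusted p = 1.96e-07) and stood at 6.033 ± 0.605 with PBSL + IL-1β, which was not called. The summed level of the 5 lymphocyte markers was 7.03 to 8.17 in untreated, 8.09 to 8.58 in IL-1β and 5.46 to 6.67 in PBSL + IL-1β libraries, and their part in the CTSW result was not tested. LGMN, or legumain, an endopeptidase that cuts cathepsin precursors, rose from 25.54 ± 1.99 to 33.78 ± 0.176 with IL-1β (adjusted p = 0.000498). It fell to 24.13 ± 1.23 with PBSL (adjusted p = 0.00264). CTSO, a little-studied cysteine cathepsin, rose from 4.92 ± 0.416 to 7.829 ± 0.105 (adjusted p = 0.00127) and fell to 5.417 ± 1.02 (adjusted p = 0.0104). The IL-1β libraries of LGMN and CTSO lay above those of both other groups.

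Of 19 other cystatins and protease inhibitors, 8 were tested. SERPINB8 and SERPINB4 rose with IL-1β and none fell; at an unadjusted p under 0.05, 2 were higher and 2 lower. SERPINB8 went from 12.94 ± 0.333 to 35.7 ± 1.63 (adjusted p = 2.45e-09), and SERPINB4, a serpin of squamous epithelium, from 0.09067 ± 0.09 to 2.944 ± 0.491 (adjusted p = 1.68e-06). SERPINB4 passed the filter only through libraries given IL-1β, so it had to differ. Without untreated 1, 4 were higher with IL-1β. With PBSL 0 were called by limma, and at an unadjusted p under 0.05 1 was higher and 1 lower. Without PBSL 1, 1 was called higher and 2 lower, and without untreated 1, 1 was called lower. CSTB, the cytosolic cystatin B, had 46.89 ± 0.937 with IL-1β and 52.41 ± 3.92 with PBSL + IL-1β (adjusted p = 0.0814). SERPINB1, an inhibitor of neutrophil proteases, had 20.67 ± 0.352 and 17.12 ± 3.01 (adjusted p = 0.0562).

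Of 37 tested lysosomal hydrolases and their activators, 7 rose and 5 fell with IL-1β (median log2 fold change 0.036), and 1 rose and 16 fell with PBSL (median -0.135, against 0.00794 over all genes tested). The list had 40 genes, and 37 were in the table. The counts with IL-1β were 3 higher and 2 lower without untreated 1, and 6 higher and 3 lower without untreated 3. Leaving out IL-1β 1 gave 4 higher and 3 lower, and leaving out IL-1β 3 gave 5 higher and 2 lower. IFI30, a lysosomal thiol reductase induced by interferon, rose from 31.08 ± 2.16 to 46.74 ± 2.99 with IL-1β (adjusted p = 0.00157). ARSB, arylsulfatase B, rose from 7.611 ± 0.505 to 10.18 ± 0.659 (adjusted p = 0.00373). With PBSL, CPQ, a lysosomal carboxypeptidase, fell from 22.75 ± 1.1 to 16.38 ± 1.44 (adjusted p = 0.00312) and LIPA, the lysosomal acid lipase, from 55.67 ± 1.86 to 44.92 ± 4.29 (adjusted p = 0.00923). PBSL 2 was the lowest library for both. The number of hydrolases that were lower with PBSL was 7 without IL-1β 1 or IL-1β 2, 9 without IL-1β 3 and 10 without PBSL 2 or PBSL 3, and 0 were higher without any 1 library other than PBSL 1, while the median stayed between -0.17 and -0.132 over the alternatives. The median of this list and that of the 10 genes above were both below 0 with PBSL. So were those of the other cathepsins and legumain (-0.293), the other cystatins and inhibitors (-0.211) and the class II partners (-0.263). The medians were -0.00935 for sorting genes, 0.0175 for regulators, 0.0587 for membrane proteins and 0.0785 for V-ATPase subunits. No test compared the lists with other genes.

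Of 18 tested membrane proteins 4 rose and 4 fell with IL-1β, and 1 rose and 2 fell with PBSL (median 0.0587). With PBSL 3 rose and 3 fell without PBSL 1, 2 rose without untreated 2, and 1 fell without IL-1β 1 or IL-1β 3. CD68, a heavily glycosylated membrane protein of lysosomes, rose from 71.6 ± 3.67 to 95.66 ± 1.75 with IL-1β and fell to 82.15 ± 3.04 with PBSL (adjusted p = 8.35e-05 and 0.0139); the fall was not called without IL-1β 1 or IL-1β 3 (adjusted p up to 0.0583). SCARB2, the carrier of glucocerebrosidase, rose with IL-1β from 84.64 ± 1.05 to 99.64 ± 0.102 (adjusted p = 0.00335). It fell with PBSL to 84.15 ± 4.42 (adjusted p = 0.00702). CTNS, the cystine exporter, was the gene that rose with PBSL, from 8.982 ± 0.352 to 12.74 ± 1.63 (adjusted p = 0.0073). NPC1, the cholesterol exporter, rose with IL-1β from 49.81 ± 1.13 to 64.24 ± 0.561 (adjusted p = 0.000119).

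Of 17 tested subunits of the V-ATPase, the proton pump that acidifies lysosomes, 6 rose and 2 fell with IL-1β, and 3 rose and 1 fell with PBSL (median 0.0785). Without IL-1β 3 the number higher with IL-1β was 3. With PBSL 0 were called in either direction without IL-1β 2, 2 were higher and 0 lower without IL-1β 3, 5 were higher without PBSL 1, and 2 were lower without PBSL 3. ATP6V1A, its catalytic subunit, fell with IL-1β from 25.23 ± 0.541 to 17.9 ± 1.4 (adjusted p = 0.000157) and ATP6V0E2 from 40.63 ± 1.75 to 29.55 ± 1.45 (adjusted p = 0.000219). With PBSL, ATP6V1H rose from 22.67 ± 1.17 to 28.12 ± 2.39 (adjusted p = 0.0115) and ATP6V1C1 from 24.88 ± 0.756 to 32.21 ± 4.34 (adjusted p = 0.0133). Both calls were lost without IL-1β 2 (adjusted p = 0.05 and 0.0521).

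Of 21 tested genes that sort lysosomal enzymes, 2 rose and 3 fell with IL-1β, and 1 rose and 1 fell with PBSL. The number lower with IL-1β was 1 without untreated 1 or untreated 3 and 5 without PBSL 3, while 3 were higher without untreated 3, PBSL 1 or PBSL 3. The sorting receptor SORT1, or sortilin, fell with IL-1β from 20.98 ± 0.464 to 14.37 ± 0.359 (adjusted p = 1.81e-05), and the related SORL1 from 2.141 ± 0.223 to 0.7827 ± 0.0441 (adjusted p = 2.62e-05). SORL1 passed the filter only through the untreated libraries, so it had to differ. With PBSL, LRP1, an endocytic receptor that takes up secreted proteases, fell from 75.21 ± 3.05 to 58.42 ± 3.37 (adjusted p = 0.00387), and VPS26A, a retromer subunit, rose from 39.12 ± 0.771 to 45.71 ± 4.71 (adjusted p = 0.0494). The VPS26A call was lost under 14 of 16 alternatives, the run without each library other than PBSL 1 among them (adjusted p up to 0.14).

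Of 21 tested lysosomal and autophagy regulators, 5 rose and 3 fell with IL-1β, and 2 rose and 2 fell with PBSL. Without untreated 1 or any 1 of the IL-1β libraries 3 were higher and 2 lower with IL-1β, and without PBSL 3 the number lower was 5. With PBSL 1 was higher and 1 lower without any 1 of the IL-1β libraries, and 1 was higher without PBSL 2 or PBSL 3. WIPI1, an autophagosome protein, rose with IL-1β from 20.56 ± 0.329 to 32.91 ± 0.0963 (adjusted p = 8.06e-07) and SQSTM1, the autophagy receptor p62, from 368.1 ± 11.6 to 557.7 ± 21.2 (adjusted p = 9.31e-06). WIPI1 fell with PBSL to 28.59 ± 0.667 (adjusted p = 0.0143), a call lost without any 1 of the IL-1β libraries (adjusted p up to 0.057). With PBSL GABARAPL1 fell from 54.56 ± 3.53 to 36.79 ± 5.97 (adjusted p = 0.00453) and RRAGC, a Rag GTPase, rose from 30.84 ± 1.27 to 39.04 ± 3.76 (adjusted p = 0.00924). GABARAPL1 had risen with IL-1β from 44.24 ± 2.98 (adjusted p = 0.0445), a call lost under 7 of 16 alternatives (adjusted p up to 0.156). The transcription factors that bind CACGTG elements of lysosomal genes were looked up after the values were seen. TFE3 rose with IL-1β from 58.18 ± 2.4 to 70.57 ± 2.21 (adjusted p = 0.00355) and MITF fell from 34 ± 1.9 to 25.21 ± 0.127 (adjusted p = 0.000913). TFEB, at 5.072 ± 0.6 and 4.339 ± 0.12, was not called (adjusted p = 0.24), and with PBSL none of these was called (adjusted p between 0.0782 and 0.815).

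The class II partners of CTSS were mostly below the filter. Of 11 genes, 5 were tested; 0 rose and 1 fell with IL-1β by limma, with 1 higher and 2 lower at an unadjusted p under 0.05. Without untreated 1 or PBSL 1, 1 was called higher with IL-1β. With PBSL 0 rose, also unadjusted, and 3 fell. The number lower with PBSL was 0 without IL-1β 3 or PBSL 2 and 1 without IL-1β 1. HLA-DMA, which helps load peptides, fell from 18.7 ± 0.723 to 15.03 ± 1.12 with IL-1β (adjusted p = 0.01) and to 12.37 ± 1.21 with PBSL (adjusted p = 0.0289). Leaving out IL-1β 2 ended the call with IL-1β (adjusted p = 0.0522), and that with PBSL was lost without IL-1β 1, IL-1β 3, PBSL 1 or PBSL 2 (adjusted p up to 0.119). HLA-DPA1 fell with PBSL from 6.61 ± 0.362 to 4.948 ± 0.481 (adjusted p = 0.0146), a call lost without IL-1β 2, IL-1β 3 or PBSL 2 (adjusted p up to 0.0628), while HLA-DMB stood at 1.535 ± 0.0952, 1.095 ± 0.289 and 0.9987 ± 0.0554 in the 3 groups and was not called in either comparison.

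**Figure D5:**
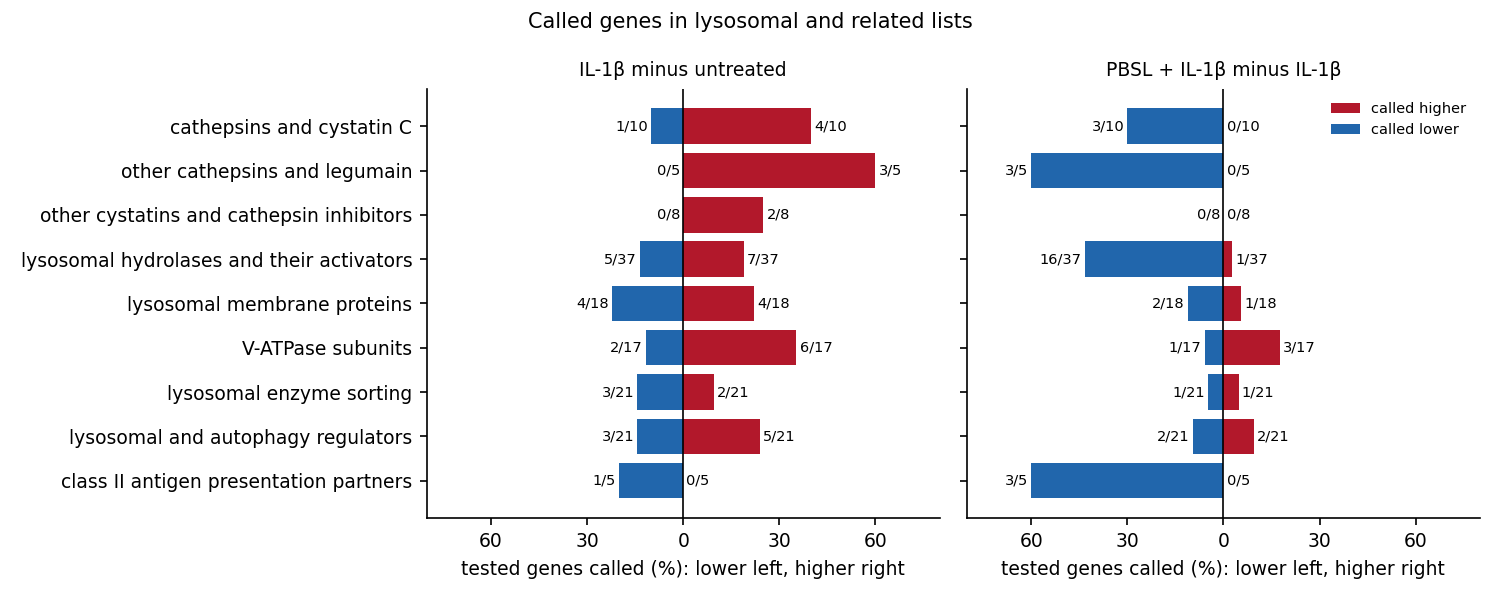
Share of the tested genes of each list that was called lower (bars to the left) or higher (bars to the right) with IL-1β against untreated cells and with PBSL + IL-1β against IL-1β; numbers give called over tested genes (limma, adjusted p under 0.05). With PBSL the hydrolase list has 16 of 37 lower and 1 higher, while 11.0% of all genes tested were lower.

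For each member called in any comparison, the genes with the closest centred log2 profile over the 9 libraries were found by root mean square difference. For CTSS, whose own profile had a root mean square of 1.54, they were the cytokine LIF (0.117), the stromelysin MMP3 (0.167) and BIRC3, an inhibitor of apoptosis (0.175). LIF went from a mean of 1.745 to 22.74 and 21.74 in the 3 groups. MMP3 went from 126.6 to 1195 and 954.7, and BIRC3 from 0.4067 to 14.69 and 11.21. Both means were thus lower with PBSL + IL-1β than with IL-1β alone, while CTSS had 34.39 and 34.37. For CTSL (0.215) they included MANF (0.0346) and EPHB2 (0.0468), with MANF means of 46.68, 61.28 and 63.01. For CTSB (0.137) they were MAN2B1, lysosomal α-mannosidase (0.0469), CCDC24 (0.0475) and PIGT (0.0476). For CTSK (0.167) they were TANK, LACTB and ADAM17, at 0.046 to 0.0536, and for CTSH (0.211) UBE2H, HIP1 and OSBPL9, at 0.063 to 0.067. For CTSZ (0.125) they were ATP6AP1, a V-ATPase accessory subunit (0.0399), MINK1 (0.0405) and PPIB (0.0436). For CST3 (0.188) they were ARSA, arylsulfatase A (0.0509), LARP6 (0.0515) and TMEM59L (0.054). For CTSA (0.0879) LRPAP1, IDS and CABIN1 were at 0.0276 to 0.034, and for CTSD (0.166) EFNB1, CDKN2A and RHBDD2 at 0.0374 to 0.0434. Profiles with little change have small differences from many genes, so these values are comparable only within a member.

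The members do not form a single locus. By GENCODE 29 (GRCh38), CTSS (150730196 to 150765957) and CTSK (150796208 to 150808323) lie 30250 bases apart on the minus strand of chromosome 1 with 1 annotated gene between them. These neighbours differed in their change with IL-1β, at 3.27 (95% interval 3.11 to 3.42) and 0.39 (0.21 to 0.57) on the log2 scale. The CTSS value was 2.9 to 3.31 times that of CTSK in untreated, 21.5 to 25.2 times in IL-1β and 27.3 to 31.5 times in PBSL + IL-1β libraries. CTSA, CTSZ and CST3 lie on chromosome 20, CTSC and CTSD on chromosome 11, CTSB on chromosome 8, CTSL on chromosome 9 and CTSH on chromosome 15. The coding sequences run from 438 bases in CST3 to 1494 in CTSA, and the transcripts contain 39.5% G and C in CTSS to 64% in CTSD. In bulk RNA, fewer cells of a kind and less RNA per cell cannot be told apart.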

How the data were processed

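RNA of 9 SW1353 libraries, 3 per group, was made into mRNA libraries with a directional kit, per the labels' protocols. The submitters' processing notes name Trim Galore, STAR, HTSeq and hg38, and versions are not given in the sources used here. The authors deposited normalized signal values, and the sources do not say if these are FPKM or TPM. No count test was run on them. The depth behind a value is unknown and no counting interval is given.

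Of 19389 rows, 11924 reached a value of 1 in 3 or more libraries and were tested after adding 1 and taking log2. limma 3.58.1 in R 4.3.3, with a trend of variance on mean, was fitted to all 9 libraries with a mean per group (6 residual degrees of freedom), 2-sided, with Benjamini-Hochberg adjustment over all genes tested and a threshold of 0.05. Fold changes are on the log2(value + 1) scale, which understates changes of low genes; ratios and percent changes are of group means of the deposited values. Permuting 3 against 3 libraries exactly reaches p = 0.1 at the lowest, so no such test was used. The fit was run on simulated data for IL-1β against untreated cells, with independent normal errors and the same spread of a gene in every group. This simulation did not cover the comparisons with PBSL, and its outcome is not given here. The labels do not say that a shared replicate number marks a shared culture, so no replicate block was used in the main fit. The members and lists were chosen with earlier results of these data known.

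From each list the 2 tested genes with the smallest p with IL-1β and the 2 with PBSL were named, along with all members and, for each called member, the 3 most alike genes with a mean of at least 5; 1 of those for CTSL is not reported here. Gene positions come from GENCODE 29 and upstream sequences from RefSeq (GRCh38.p14). A transcript was compared with those of other genes in stretches of 50 bases. Endothelial markers summed to at most 1.33. Alternatives were a pseudocount of 0.1, no filter, median-ratio rescaling, only the 2 groups compared, no variance trend, array weights, a replicate block and each library left out. Figures were drawn with matplotlib 3.10.9 under Python 3.11.15, from tables made with pandas 2.3.3.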

Additional observations from a re-analysis of the deposited data

How the results depend on the processing

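The calls of CTSS, CTSL, CTSK and CTSH with IL-1β, and of CTSS, CTSL, CTSH and CTSD against untreated cells with PBSL + IL-1β, were kept under all 16 alternatives of a comparison. For CTSK the limit remains that it passed the filter only through libraries given IL-1β. With array weights 2 members were lower with IL-1β, where 1 had been, since CTSD passed. With no filter on low values 0 members were lower with PBSL, where 3 had been; leaving out a library gave 0 to 4, with 0 without IL-1β 1, IL-1β 2, IL-1β 3 or PBSL 3 and 1 without untreated 2. With PBSL + IL-1β against untreated cells, 5 members were lower, against 2 with only the 2 groups compared and with array weights, and 2 to 5 when a library was left out. The cause was not tested.

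Signs changed only in comparisons that were not called and only when a library was left out. The ranges were -0.013 to 0.086 for CST3, -0.25 to 0.056 for CTSC and -0.013 to 0.057 for CTSZ with IL-1β, -0.066 to 0.052 for CTSS with PBSL, and -0.056 to 0.078 for CTSB with PBSL + IL-1β against untreated cells. Over all genes the number called with PBSL, 2684, ran from 1304 without IL-1β 2 to 3910 without PBSL 1, so the background share moved as well.

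The deviations of same-numbered libraries from their group means had correlations of -0.225 to 0.0681 over 9 pairs, across genes. Pairs of libraries with different numbers, also from different groups, had correlations of -0.111 to 0.196. These values cannot show whether same-numbered libraries shared a culture. With the replicate block 4 members were higher and 1 lower with IL-1β, 0 higher and 2 lower with PBSL, and 2 higher and 4 lower against untreated cells. With the block 6 hydrolases were higher and 3 lower with IL-1β, 0 higher and 11 lower with PBSL.

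With array weights 11 hydrolases were higher and 7 lower with IL-1β. With only the 2 groups compared 4 sorting genes were higher and 5 lower with IL-1β. With no filter 1 of 11 class II partners was lower with PBSL.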
